A study of Homo sapiens with 11 samples.

Results

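The 332 transcripts described here lie on lines 172001 to 173000 of a count table shared by 11 sequencing libraries, a stretch chosen because its RNA stood higher in 1 of 2 knockouts than in the other knockout and in wild-type cells. A row belonged to the set if it held at least 10 counts in 2 or more of the 6 RNA libraries, and rows with identical counts in all libraries were merged. Of the 1000 rows on these lines, 465 had no listed length, 470 had a count in some library and 405 passed the count rule, which left 332 members after merging. They made up 332 of the 57719 merged transcripts that passed the same rule in the whole table. Another 32 merged transcripts of the stretch had counts and stayed below the rule. At its border, 1 member had a second-highest RNA count of exactly 10, and 3 transcripts left out had a second-highest count of 9. The members were chosen by their level in knockout 1, so every comparison of that knockout below is a description of them and supports nothing further.

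The cells were HEK293T, a line from human embryonic kidney that makes the large T antigen of SV40. Both knockouts lack the enzyme that the labels call CSAM, now named PCIF1, which methylates N6 of a cap-adjacent adenosine in messenger RNA. The line is known for an abnormal set of chromosomes, and cells of the line that are grown separately can differ in how many copies of a chromosome segment they hold. The amount of RNA from a gene often follows the number of its copies. Ribosome footprints, the short RNA pieces that a translating ribosome shields from nuclease, measure how many ribosomes sit on a transcript, and their change over the RNA change is the change of translational efficiency.

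RNA was sequenced in 2 libraries each of wild type (labelled WT#1 and WT#2), knockout 1 (CSAM-KO#1) and knockout 2 (CSAM-KO#2). Footprints were sequenced in 1 library of wild type and 2 of each knockout. The names of the deposited tables carry the tag B2 for knockout 1 and 7-5 for knockout 2. The labels number the knockouts and do not say how each was made or whether it is 1 clone. The 2 replicates of a knockout share its number, so in either knockout the loss of the enzyme and other differences of that cell line cannot be told apart. No label says that replicates were grown as separate cultures, so the p-values cover the spread of these libraries alone, and that spread may be technical. Library totals after merging were 40346318 to 63551193 counts for RNA and 8387752 to 17437453 for footprints.

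The tables give transcript identifiers and no gene names, so neither the knocked-out gene nor markers of the cell type could be looked up in them. In the whole table, 4 identifiers matched a RefSeq synonym when the version was ignored, none of them inside the stretch and all of them with 0 counts. The nearest match above was line 170350 (ZNF350-AS1, chromosome 19) and the nearest below was line 174490 (HNF4A-AS1, chromosome 20). Whether neighbouring lines are neighbours in the genome was not given in the sources used here. Members are therefore called by their line, and identifiers are printed for 4 of them.

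Members lay along the whole stretch, though not evenly. The 50 blocks of 20 lines held 1 to 15 members each, and 53 members stood for more than 1 identical row. Their listed lengths ran from 17 to 1420 with a median of 270, against a median of 225 over all transcripts that passed the rule. The tables do not name the unit of that length. Their mean RNA level ran from 0.14 to 295 CPM (counts scaled to a common library size with TMM factors) with a median of 5.07 CPM, and the median over all transcripts was 4.20 CPM. Neighbouring members may be transcripts of 1 gene and share its reads, so the members are not independent of one another.

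The members took a larger part of all counts in knockout 1. In RNA they held 0.456% and 0.472% of the library total in wild type and 0.563% and 0.564% of it in knockout 1. Knockout 2 had 0.494% and 0.499%. Both knockout 1 libraries lay above the other 4, and the groups did not overlap. In footprints the members held 0.490% of the wild-type library, 0.599% and 0.601% of the knockout 1 libraries, and 0.570% and 0.565% of the knockout 2 libraries. Here too the 2 knockout 1 libraries were the highest, although knockout 2 stood closer to them than to wild type.

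The same order held for the typical member. On a log2 scale centred on the mean of the 3 genotypes, the median member stood at -0.11 and -0.10 in the wild-type RNA libraries, at 0.17 and 0.16 in knockout 1, and at -0.03 and -0.04 in knockout 2. In footprints it stood at -0.15 in the wild-type library, at 0.18 in both knockout 1 libraries, and at -0.003 and -0.009 in those of knockout 2. Replicates of a genotype lay closer to each other than to any library of another genotype, and the medians over all transcripts stayed near 0 in every library.

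**Figure D1:**
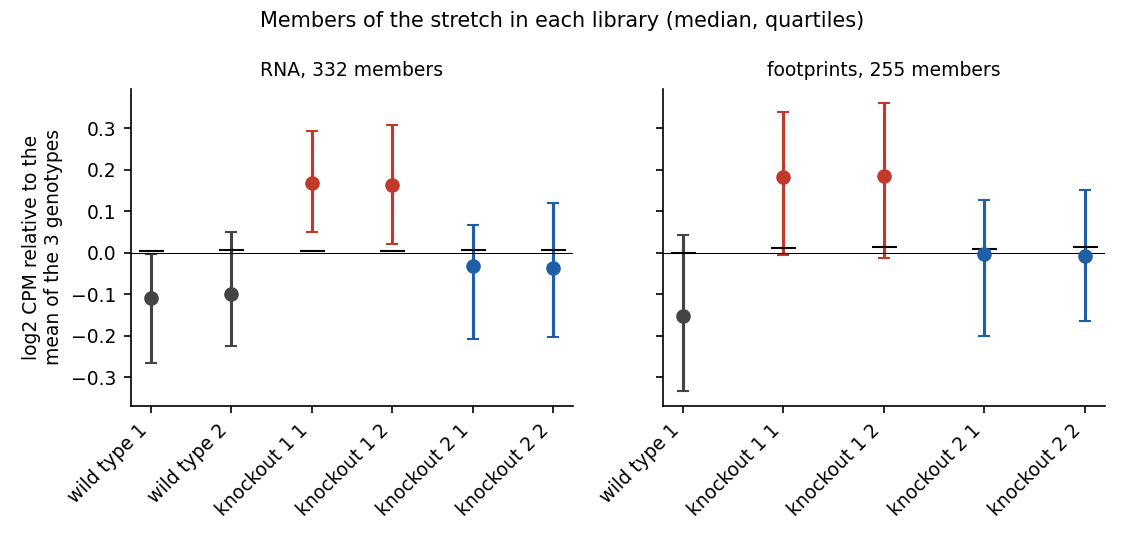
Level of the members in each library, as log2 CPM relative to the mean of the 3 genotypes, for RNA (332 members, left) and footprints (255 members, right). Points are medians over members, bars run between the quartiles, and the short black lines are the medians over all transcripts, which lie near 0 while both knockout 1 libraries lie highest in each panel.

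In RNA the median member was 1.23 times as high in knockout 1 as in wild type, a log2 difference of 0.30 with quartiles of 0.09 and 0.46 over members. The median was 0.26 to 0.30 over the 4 pairs of single libraries, and 281 members (84.6%) lay above 0. By edgeR's quasi-likelihood test with Benjamini-Hochberg adjustment over all transcripts, 69 members were called higher at an adjusted p under 0.05 and 2 lower, beside 2.18% of all transcripts called higher and 2.08% lower. Nothing is read from that contrast, since the rule used it. The calls higher spread over 23 blocks of 20 lines, from line 172113 to line 172943. The number of calls rested on both knockout 1 libraries. Without replicate 1 of knockout 1 there were 13 calls and without replicate 2 there were 23, while the median log2 difference stayed at 0.29 to 0.30 when any 1 RNA library was left out. Calls over all transcripts fell too, from 1256 higher and 1202 lower to 324 and 277 without replicate 1 and to 400 and 354 without replicate 2.

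Against knockout 2 the RNA ratio was smaller. The median member was 1.17 times as high in knockout 1, a log2 difference of 0.23 with quartiles of 0.06 and 0.39, and 0.18 to 0.23 over the 4 library pairs. Of the members, 268 (80.7%) lay above 0, and edgeR called 28 higher and 6 lower, beside 3.53% and 3.01% of all transcripts. Here the calls again changed with single libraries. They numbered 13 and 10 without replicate 1 or 2 of knockout 1, 21 and 19 without replicate 1 or 2 of knockout 2, and 54 without either wild-type RNA library. Over all transcripts the calls moved the same way, from 2035 higher and 1737 lower to 1025 and 559 or 930 and 422 without a knockout 1 library, and to 1349 and 1089 or 1149 and 779 without a knockout 2 library. Without a wild-type library they numbered 2739 and 2597 or 2763 and 2603. Both knockout 1 comparisons share the knockout 1 libraries, so their values for the members are given side by side.

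Many members had no overlap between knockout 1 and the other 2 genotypes. In 147 of 332 members (44.3%) both knockout 1 RNA libraries lay above all 4 others, beside 9.52% of all transcripts, and in 6 they lay below all 4, beside 9.59%. Against wild type alone the 2 knockout 1 libraries lay above both others in 209 members, beside 23.5% of all transcripts, and against knockout 2 alone in 195, beside 25.3%. The 14 members called higher in both comparisons, from which the named transcripts were taken, lie in 8 blocks of 20 lines. Of all 57719 transcripts, 0.695% were called higher in both, and the comparisons share the knockout 1 libraries. There were also 19 members at or below 0 in both comparisons, with a median level of 1.14 CPM. Of these, 6 lie on the first 100 lines.

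**Figure D2:**
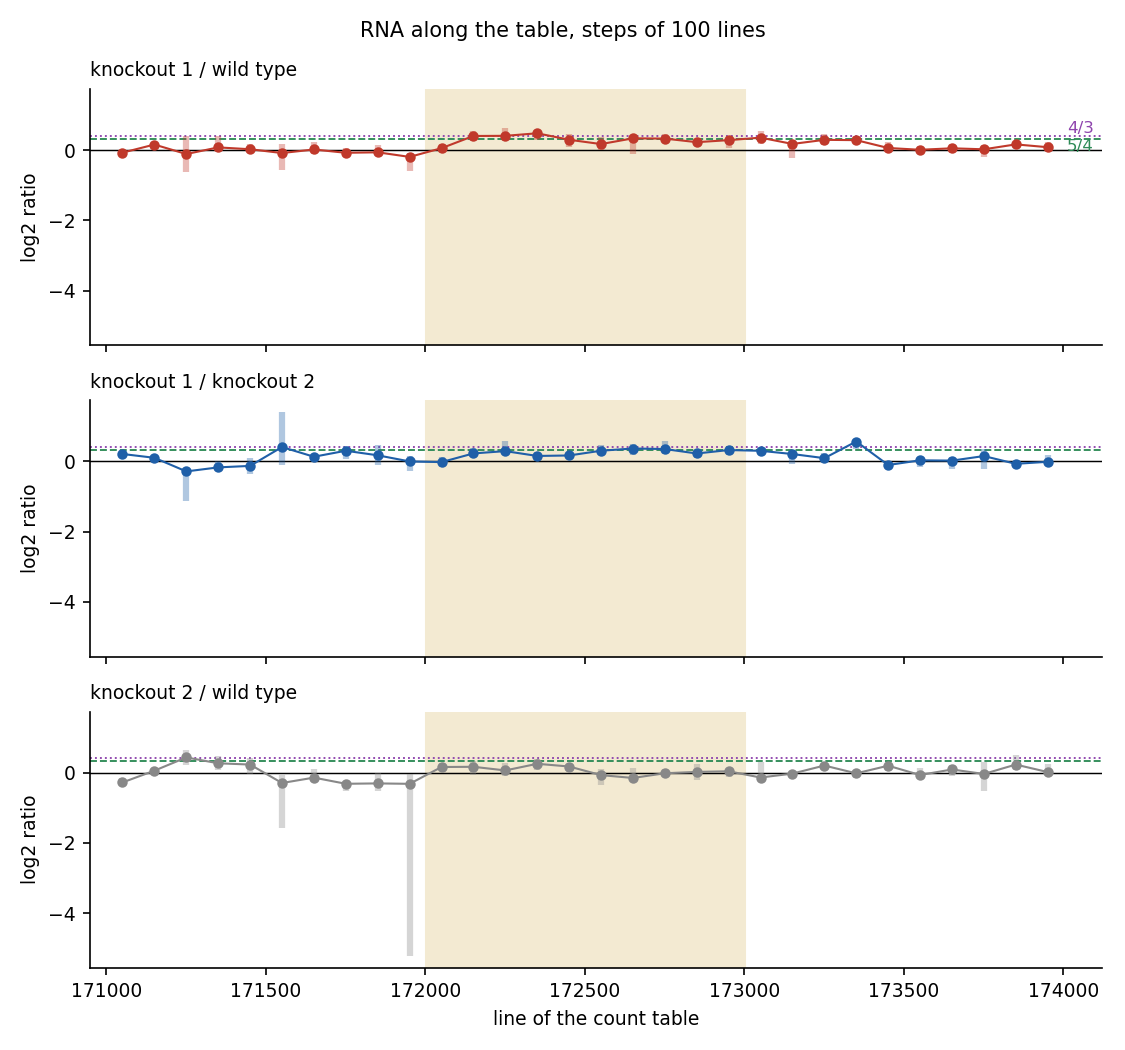
Median RNA log2 ratio (vertical axis, from edgeR) in steps of 100 lines of the count table (horizontal axis) for the 3 pairs of genotypes, with bars between the quartiles. The shaded band is the stretch of lines 172001 to 173000, and the dashed and dotted lines mark ratios of 5/4 and 4/3. The ratio of knockout 1 to wild type rises after the first step of the band and returns toward 0 after line 173400, beyond its end. The ratio of knockout 1 to knockout 2 also falls after line 173400, though lines 173301 to 173400 hold only 3 transcripts. That ratio stood as high as 0.41 before the band, on lines 171501 to 171600.

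The edges were mapped in steps of 100 lines from 1000 lines before the stretch to 1000 lines after it. In the first step of the stretch, lines 172001 to 172100, the 42 members had a median RNA log2 ratio of 0.06 against wild type and -0.02 against knockout 2, so this first step was not raised. In the next 9 steps, the median lay between 0.17 and 0.48 against wild type and between 0.16 and 0.37 against knockout 2. Over all 290 members of those 9 steps it was 0.34 and 0.25. The raised level went on past the end of the stretch. The 71 transcripts on lines 173001 to 173400 had medians of 0.26 and 0.21, and the 226 transcripts from line 173401 to the end of the mapped lines had 0.08 and -0.02. Before the stretch, the 310 transcripts in the 1000 lines up to line 172000 had medians of -0.03 and 0.06. Against knockout 2 the single steps there differed widely, from -0.28 on lines 171201 to 171300 to 0.41 on lines 171501 to 171600.

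A step was then fitted, as the pair of lines on the same grid that left the smallest summed absolute deviation from 1 level inside and 1 outside. Only pairs with the level inside above that outside were allowed, so the fit could return no lowered step. Against wild type in RNA the step ran from line 172101 to line 173400, with a level of 0.32 for the 361 transcripts inside and 0.03 for the 578 outside. All 4 single library pairs gave the first line 172101, and they gave last lines of 173400 to 173500. Against knockout 2 the end was the same, line 173400, but the start moved to line 171501, with 0.21 inside and -0.06 outside. Single library pairs all started there and gave last lines of 173200 to 173400. That earlier start lies where the medians of knockout 2 itself went from above wild type to below it. On lines 171201 to 171500 the medians of knockout 2 to wild type were 0.44, 0.27 and 0.23. From line 171501 to line 172000 the 5 medians were -0.29, -0.14, -0.32, -0.30 and -0.32. Those of knockout 1 to wild type ran from -0.19 to 0.02 on the latter lines. The part of these levels in placing the start was not tested. The step fit took away 8.48% of the summed deviation against wild type and 7.25% against knockout 2, so single transcripts scatter widely around both levels.

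The abundant members give the pattern with the least counting error. The most abundant member of each block was taken where its mean RNA level was at least 20 CPM, which gave 24 members and was chosen after their values were seen. On lines 172101 to 173000, 22 of 22 lay above 0 against wild type. Their median log2 ratio was 0.34, with a range of 0.07 to 0.59. By edgeR 15 of them were called higher and 0 lower, beside 2.18% and 2.08% of all transcripts. The shares over all transcripts in this paragraph include every RNA level, and abundant transcripts alone were not counted. Against knockout 2, 20 of these 22 lay above 0, with a median of 0.21 and a range of -0.33 to 0.59, and 3 were called higher and 1, on line 172914, lower, beside 3.53% and 3.01%. The other 2 abundant members lie on the first 100 lines and were not raised.

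The abundant members differed in which of the other genotypes they stood apart from. The member on line 172345 (205 CPM on average) had RNA levels of 162 and 165 CPM in wild type, 246 and 235 CPM in knockout 1, and 215 and 207 CPM in knockout 2. All 3 genotypes were apart from each other there, with knockout 2 between the other two. Its log2 ratio was 0.55 ± 0.08 (SE) against wild type, with an adjusted p of 6.17e-05 by edgeR, and 0.19 ± 0.08 against knockout 2, with an adjusted p of 0.199. The member on line 172312 (231 CPM) had 172 and 217 CPM in wild type, 257 and 257 CPM in knockout 1, and 245 and 235 CPM in knockout 2. Knockout 2 was close to knockout 1 in this member, and the wild-type replicates were far apart. Its log2 ratio was 0.40 ± 0.09 against wild type (adjusted p = 0.0106, edgeR) and 0.10 ± 0.09 against knockout 2 (adjusted p = 0.617). At line 172408 the levels were 19.5 and 20.5 CPM in wild type, 29.95 and 30.17 CPM in knockout 1, and 27.3 and 28.5 CPM in knockout 2, again with no overlap and knockout 2 in between.

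**Figure D3:**
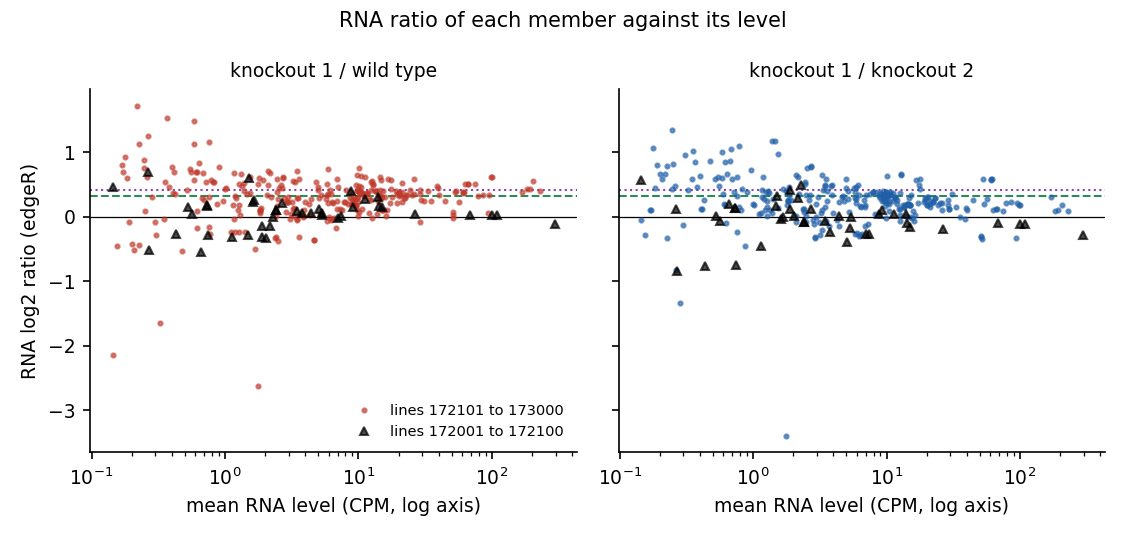
RNA log2 ratio of each member (vertical axis, from edgeR) against its mean RNA level over the 6 RNA libraries (CPM, log axis), for knockout 1 to wild type (left) and to knockout 2 (right). Points are members on lines 172101 to 173000, black triangles those on lines 172001 to 172100, and the dashed and dotted lines mark ratios of 5/4 and 4/3. Points close up around a raised level as the RNA level grows, and the 2 triangles of the highest RNA level, lines 172063 and 172003, stand at 0.04 and -0.11 on the left and at -0.12 and -0.28 on the right.

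The most abundant members called higher in both RNA comparisons, 1 per block of 20 lines, were uc002wlp.4 and uc002wml.4. For uc002wlp.4 (line 172561, listed length 252), RNA stood at 148 and 154 CPM in wild type, 194 and 202 CPM in knockout 1, and 161 and 159 CPM in knockout 2. Knockout 1 lay above both other genotypes, and these lay close together. The log2 ratio was 0.39 ± 0.08 (SE) against wild type (adjusted p = 0.0044, edgeR) and 0.31 ± 0.08 against knockout 2 (adjusted p = 0.0199). Its footprints did not follow against wild type. They stood at 233 CPM in wild type, 236 and 206 CPM in knockout 1, and 163 and 188 CPM in knockout 2, a log2 ratio of -0.07 ± 0.11 against wild type (adjusted p = 0.777, edgeR) and 0.34 ± 0.09 against knockout 2 (adjusted p = 0.0064). Without replicate 1 or 2 of knockout 1, the RNA calls of this member were lost, with adjusted p-values of 0.107 and 0.177 against wild type and 0.161 and 0.331 against knockout 2. The call against knockout 2 was also lost without replicate 1 or 2 of knockout 2, at 0.0777 and 0.109. The footprint call was lost without replicate 1 of knockout 1 (0.201) or of knockout 2 (0.245), and with DESeq2 (0.0628).

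For uc002wml.4 (line 172611, listed length 831), RNA stood at 58.1 and 58.0 CPM in wild type, 76.4 and 74.9 CPM in knockout 1, and 49.3 and 51.3 CPM in knockout 2. Replicates were tight, and knockout 2 lay lowest. The log2 ratio was 0.38 ± 0.08 against wild type (adjusted p = 0.0052, edgeR) and 0.59 ± 0.08 against knockout 2 (adjusted p = 1.18e-05). Footprints stood at 16.6 CPM in wild type, 24.4 and 20.6 CPM in knockout 1, and 15.9 and 17.7 CPM in knockout 2. They were highest in knockout 1, with a log2 ratio of 0.45 ± 0.17 against wild type (adjusted p = 0.113, edgeR) and 0.44 ± 0.13 against knockout 2 (adjusted p = 0.0186). The RNA call against wild type was lost without replicate 1 or 2 of knockout 1 (adjusted p = 0.171 and 0.114, edgeR), and the call against knockout 2 held without any 1 RNA library. The footprint call against knockout 2 was lost without replicate 1 of knockout 1 (0.338), replicate 1 (0.308) or replicate 2 (0.0521) of knockout 2, and with DESeq2 (0.399). The footprint difference from wild type passed without replicate 2 of knockout 1 (0.0476). Of the 14 members called higher in both RNA comparisons, 4 lie on lines 172609 to 172612 and may be transcripts of 1 gene.

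The members that stood lowest in knockout 1 were named by a mean RNA count of at least 50 and the lowest mean of the 2 ratios. The first, uc002wmu.2 (line 172633, listed length 387), went far against the stretch. Its RNA stood at 2.08 and 1.61 CPM in wild type, 0.249 and 0.339 CPM in knockout 1, and 2.65 and 3.68 CPM in knockout 2. Knockout 1 was below every other library, with a log2 ratio of -2.63 ± 0.31 against wild type (adjusted p = 8.81e-07, edgeR) and -3.40 ± 0.30 against knockout 2 (adjusted p = 1.41e-09). Both calls held without any 1 RNA library. Footprint counts were few, with 6 in the wild-type library, 0 and 3 in those of knockout 1 and 30 and 17 in those of knockout 2. Over both libraries the 3 counts of knockout 1 gave a ratio per library total of 0.0897 to knockout 2, with an exact 95% counting interval of 0.0179 to 0.279, and of 0.232 (0.0375 to 1.08) to wild type. The fitted log2 footprint ratio to knockout 2, -3.40, has an adjusted p of 1.32e-04 by edgeR, and of 0.0516 without replicate 1 of knockout 1. Its line lies inside the raised lines.

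The second, uc002qtb.4 (line 172044, listed length 86), did not pass any test. Its RNA stood at 1.04 and 1.30 CPM in wild type, 1.14 and 0.758 CPM in knockout 1, and 1.55 and 1.03 CPM in knockout 2, with overlapping groups. The log2 ratio was -0.31 ± 0.29 against wild type (adjusted p = 0.645, edgeR) and -0.46 ± 0.29 against knockout 2 (adjusted p = 0.412). Its footprint counts were too few to be tested.

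Apart from these, 2 groups of members stood out from the raised level after their values were seen. The first is the start of the stretch. Line 172003, the most abundant member at 295 CPM, had 284 and 295 CPM in wild type, 271 and 268 CPM in knockout 1, and 315 and 338 CPM in knockout 2. Knockout 1 was lowest, by -0.28 ± 0.08 against knockout 2 (adjusted p = 0.0397, edgeR) and -0.11 ± 0.08 against wild type (adjusted p = 0.576). Line 172063 (108 CPM) stood at 0.04 and -0.12 in the same comparisons, and neither passed. The second group lies on lines 172906 to 172914, where 4 of the 6 members called lower against knockout 2 are found. Line 172914 had 82.6 and 83.5 CPM in wild type, 86.8 and 87.1 CPM in knockout 1, and 115 and 103 CPM in knockout 2. There knockout 2 stood apart, at -0.33 ± 0.09 for knockout 1 against it (adjusted p = 0.0171, edgeR), while knockout 1 against wild type was 0.07 ± 0.09 (adjusted p = 0.760).

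Footprints were tested for 255 of the 332 members, those with at least 10 counts in 2 footprint libraries. Against wild type the median member was 1.29 times as high in knockout 1, a log2 difference of 0.37, with 0.34 and 0.35 in the 2 library pairs. The spread of the single wild-type library was taken from the knockout pairs. By edgeR 30 members were called higher and 3 lower, beside 2.4% and 3.64% of all transcripts. DESeq2 called 6 and 3, and 228 and 755 of all transcripts. Against knockout 2 the median was 0.17, a ratio of 1.12, with 0.15 to 0.17 over 4 library pairs, and edgeR called 27 higher and 6 lower, beside 4.54% and 3.78% of all transcripts. DESeq2 called 3 higher and none lower, and 467 and 289 of all transcripts. Without replicate 1 of knockout 1 or of knockout 2, edgeR called 6 members in this comparison, and without replicate 2 of knockout 2 it called 20. Calls over all transcripts fell in the same fits, from 2018 higher and 1678 lower to 970 and 595, 999 and 619, and 1287 and 909. In 89 members (34.9%) both knockout 1 footprint libraries lay above the other 3, beside 11.9% of all transcripts, and in 14 they lay below, beside 11.3%.

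**Figure D4:**
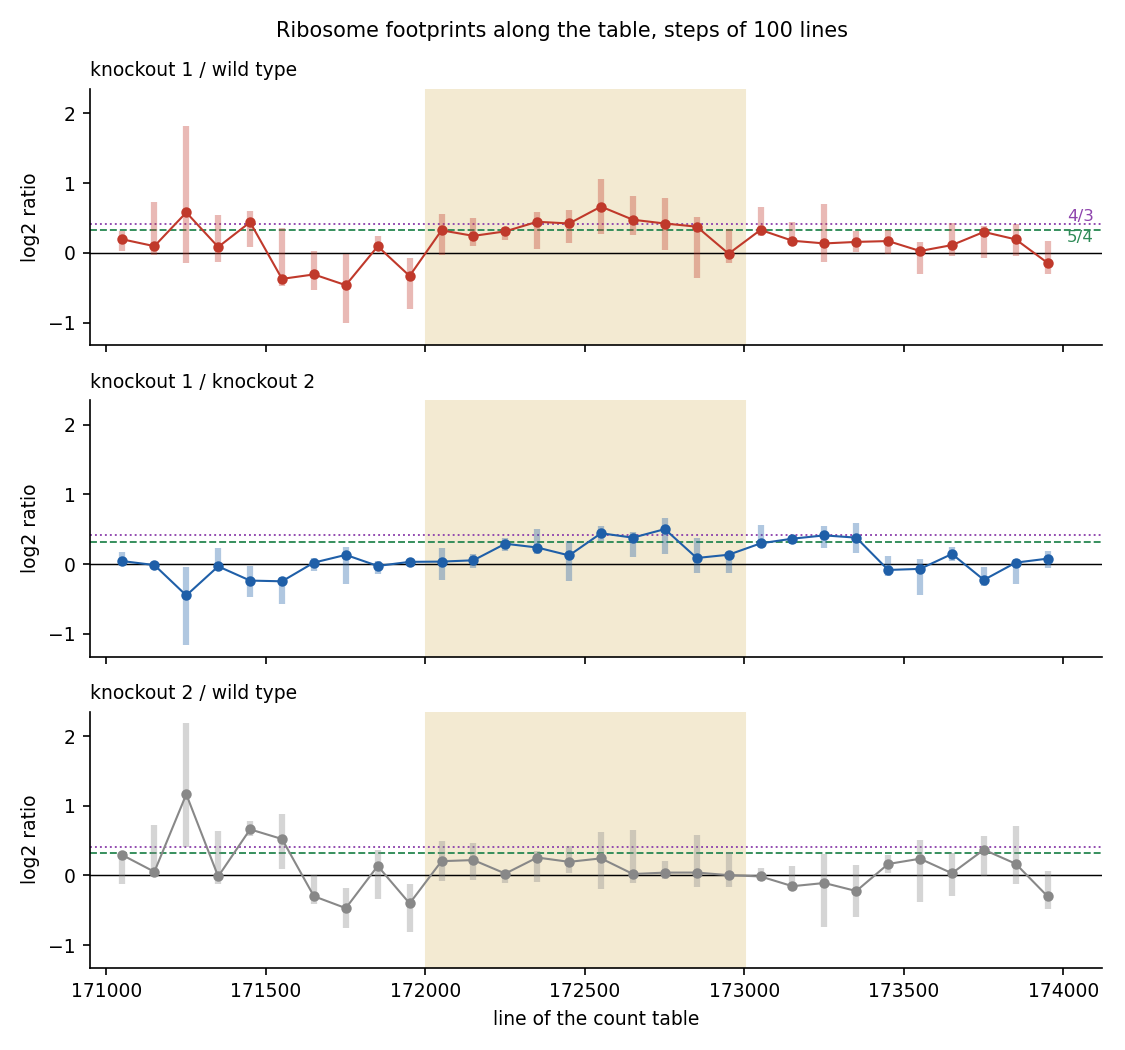
Median footprint log2 ratio (vertical axis, from edgeR) in steps of 100 lines of the count table (horizontal axis) for the 3 pairs of genotypes, with bars between the quartiles. Shading and lines are as for RNA. The medians of knockout 1 lie above 0 in 9 of 10 steps of the shaded stretch against wild type and in 10 of 10 against knockout 2.

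The edges in footprints were less sharp than in RNA. Against wild type the fitted step ran from line 172001 to line 172900, with 0.41 inside and 0.09 outside, and the library pairs gave last lines of 172900 and 173900. The first step of the stretch had a footprint median of 0.32 against wild type, where its RNA median was 0.06, and the last had -0.01. Against knockout 2 the step ran from line 172201 to line 173300, with 0.27 inside and 0.004 outside, and single library pairs gave first lines from 171701 to 172501 and last lines of 173300 to 173400. Both RNA fits thus ended at line 173400 and the footprint fit against knockout 2 at line 173300. That end is loosely placed, since lines 173301 to 173400 held only 3 transcripts in RNA and 2 in footprints. In RNA against knockout 2 those 3 had a median of 0.57, while lines 173201 to 173300 had 0.09. Footprint medians outside the stretch were also far from 0, with -0.46 on lines 171701 to 171800 and 0.58 on lines 171201 to 171300 against wild type.

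RNA and footprints moved by similar amounts in the typical member, and less alike member by member. By blocks of 20 lines, RNA medians lay above 0 in 46 of 50 blocks against wild type and 41 of 50 against knockout 2. Footprint medians lay above 0 in 41 and 37 of 48 blocks. Across the 255 members, RNA and footprint changes correlated with Pearson's r = 0.28 against wild type and r = 0.63 against knockout 2. Over all transcripts tested, r was 0.33 and 0.53. By ranks, Spearman's rho was lower among members, 0.15 and 0.41, beside 0.23 and 0.35 over all transcripts. The member uc002wmu.2 lies far from the rest, at -3.40 in both assays against knockout 2, with 3 footprint counts in knockout 1. These correlations are across transcripts that can share reads, so they are given as descriptions. The median change of translational efficiency was 0.05 against wild type and -0.01 against knockout 2.

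No member was called higher in translational efficiency in knockout 1, and 6 were called lower against wild type by edgeR, beside 0.191% higher and 1.01% lower of all transcripts. Against knockout 2 edgeR called 0 of 255 in either direction, beside 0.445% higher and 0.059% lower of all transcripts. An unadjusted p under 0.05 by edgeR was reached by 19 of the 255 and by 4994 of all 44089 transcripts tested. Limma-voom called 0 members, and 99 higher and 8 lower over all transcripts. The 6 members lie on lines 172160, 172343, 172345 and 172881 to 172883, in 3 blocks, and RNA rose in each of them while footprints did not. At line 172883 (33.0 CPM of RNA on average) RNA stood at 25.8 and 30.6 CPM in wild type, 37.8 and 36.8 CPM in knockout 1, and 33.9 and 33.1 CPM in knockout 2. Footprints there ran the other way, at 71.0 CPM in wild type, 53.98 and 45.91 CPM in knockout 1, and 33.7 and 32.2 CPM in knockout 2. The log2 change of translational efficiency was -0.90 ± 0.16 in knockout 1 (adjusted p = 0.0026, edgeR) and -1.35 ± 0.16 in knockout 2 (adjusted p = 7.46e-07). All 6 were called lower in knockout 2 against wild type as well, and both comparisons share the single wild-type footprint library. The number of calls in knockout 1 fell to 2 without replicate 2 of the knockout 1 footprints, to 2 without replicate 1 of its RNA and to 3 without replicate 2 of its RNA. Over all transcripts the calls fell from 84 higher and 445 lower to 6 and 119, 14 and 104, and 11 and 115 in these fits.

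Knockout 2 against wild type showed a smaller shift of the members. Their median log2 difference was 0.10 for RNA, 0.11 for footprints and 0.02 for translational efficiency. By edgeR 35 members were higher in RNA and 8 lower, beside 5.9% and 6.4% of all transcripts, and in footprints 20 were higher and 12 lower, beside 7.14% and 8.67%. In translational efficiency 9 were higher and 12 lower, beside 2.64% and 5.5%. The RNA count was 21 with DESeq2, and 25, 25, 24 and 17 without replicate 1 or 2 of knockout 1 and replicate 1 or 2 of knockout 2. The footprint count was 14 with DESeq2 and 18 without replicate 1 of knockout 2, and the translational efficiency count was 9 without that library. Over all transcripts the RNA calls, 3407 higher and 3693 lower, were also fewer, with 2151 and 2208 by DESeq2 and 1460 and 1904 without replicate 2 of knockout 2. The footprint calls, 3171 and 3850, became 562 and 1247 by DESeq2 and 1653 and 2620 without replicate 1 of knockout 2, and the efficiency calls fell from 1166 and 2427 to 561 and 1650. Within the stretch, the RNA medians of knockout 2 to wild type lay between -0.15 and 0.25, and the highest was on lines 172301 to 172400, where knockout 1 also had its highest median against wild type, 0.48.

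The ratios were set against 5/4 and 4/3, which are the ratios of 5 copies to 4 and of 4 copies to 3. On the log2 scale these are 0.32 and 0.42. In RNA against wild type the members' median lay 0.02 below 5/4 and 0.12 below 4/3. The mean absolute deviation of members was 0.257 from 5/4, 0.279 from 4/3 and 0.367 from no change. The ratio 5/4 left about as much deviation as the members' own median did, 0.257. Against knockout 2 the median lay 0.10 below 5/4 and 0.19 below 4/3, with deviations of 0.260, 0.302 and 0.325 and 0.245 from the own median. In that comparison the median fell between no change and 5/4.

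**Figure D5:**
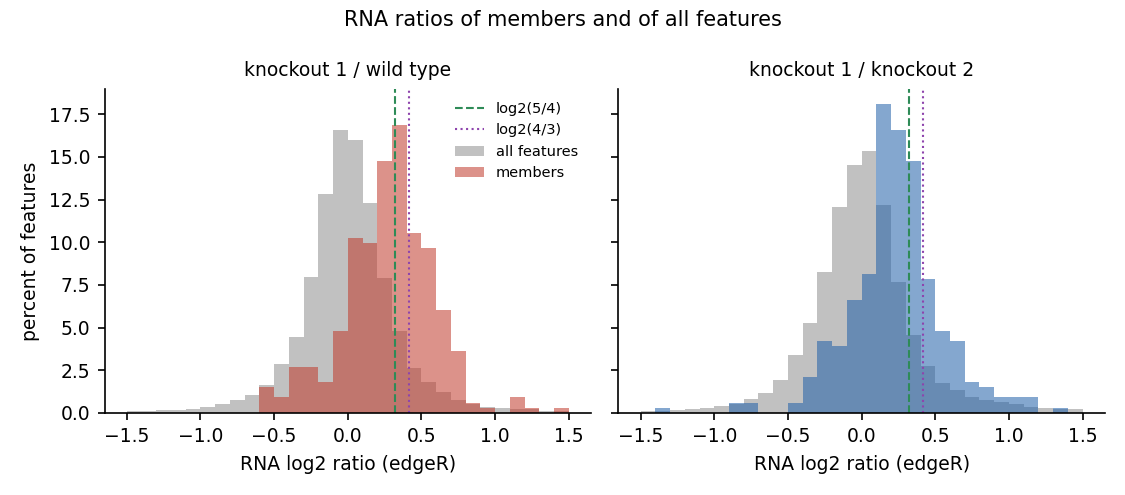
Share of members and of all transcripts (percent, vertical axis) in bins of RNA log2 ratio (horizontal axis, from edgeR), for knockout 1 to wild type (left) and to knockout 2 (right). Transcripts beyond the axis are not drawn. The members' bars lie to the right of those of all transcripts in both panels, with the marks of 5/4 and 4/3 inside their bulk on the left and on its upper side on the right.

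Against wild type the footprint median lay 0.05 above 5/4 and 0.05 below 4/3, and the deviations were 0.379 and 0.379, so neither ratio lay closer. Against knockout 2 it lay 0.15 below 5/4 and 0.25 below 4/3, and the deviations were 0.308 and 0.347, against 0.333 from no change. By steps of 100 lines in RNA, 6 of 10 steps were nearest to 5/4, 3 to 4/3 and 1 to no change against wild type, and 8 to 5/4 and 2 to no change against knockout 2. In footprints the steps nearest to no change, 5/4 and 4/3 numbered 1, 3 and 6 against wild type and 5, 2 and 3 against knockout 2. Each step was given the nearest of these 3 and no other ratio was offered. On lines 172501 to 172600 against wild type, a footprint ratio of 1.58 thus counted as 4/3 and an RNA ratio of 1.13 as 5/4.

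The measure of level changed the ratio. Members with a mean RNA count of at least 500 (107) had a median of 0.36 against wild type and 0.19 against knockout 2. In footprints, the 26 members with a mean count of at least 500 had 0.23 and 0.09. The ratio of summed CPM, which the abundant members dominate, was 1.24 against wild type and 1.10 against knockout 2 in RNA, and 1.14 and 1.05 in footprints. With the median of all transcripts taken off, or on lines 172101 to 173400, 5/4 left a smaller deviation than 4/3 in both assays and both comparisons. In footprints against wild type the gap was small, with 0.379 against 0.381 and 0.373 against 0.376. The number of DNA copies was not measured, and its part in these ratios was not tested.

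The ratio differed with the level and the length of the transcript. The 111 members of 10.02 to 295 CPM had a median RNA log2 ratio to wild type of 0.36, with quartiles of 0.25 and 0.41, and 96.4% of them lay above 0. The 110 members of 2.30 to 9.97 CPM had 0.22, and the 111 of 0.14 to 2.20 CPM had 0.31 with wide quartiles of -0.08 and 0.61. Of the 69 calls higher, 56 were among the 111 most abundant members. Calls over all transcripts of that level were not counted, so this share has no background beside it. By listed length, the median RNA ratio to wild type was 0.40 up to 200, 0.29 above 200 and up to 400 and 0.23 above 400, beside 0.03, 0.01 and -0.04 over all transcripts of those lengths. In footprints the order was the other way, with 0.30, 0.32 and 0.43, beside -0.08, 0.01 and 0.09 over all transcripts. The median change of translational efficiency was -0.19, 0.02 and 0.19, beside -0.12, -0.001 and 0.14, so all transcripts had the same order by length in each of the 3 measures. Against knockout 2 the medians by length were 0.21, 0.20 and 0.27 in RNA and 0.26, 0.15 and 0.14 in footprints, beside -0.02, -0.02 and 0.04 and 0.03, 0.03 and -0.04 over all transcripts, so the order by length was not shared by both comparisons.

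The stretch was set beside the other stretches of 1000 lines of the table, 183 in all, each by the median over its transcripts. In RNA against wild type it had the highest median of all, 0.30, and the next was 0.16, from line 152001. In footprints against wild type it was also the highest, 0.37, though the next was close, 0.36 from line 57001. Against knockout 2 it was in place 3 in both assays, where the highest were 0.79 in RNA and 0.95 in footprints, both from line 85001. In knockout 2 against wild type it stood in place 31 in RNA and 42 in footprints. In translational efficiency it stood in place 68 for knockout 1 against wild type, 118 for knockout 1 against knockout 2 and 90 for knockout 2 against wild type. Since the stretch was picked for its level in knockout 1, its place in those comparisons is a description.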

How the data were processed

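The deposited tables hold whole-number read counts per transcript, not normalised, in 1 file per library. Tools listed without a role in the submitters' processing notes are Bowtie2 2.1.0, TopHat2 2.0.9 and CASAVA 1.8, and the listed build is hg38. How reads were counted, with which strand setting and with what rule for shared reads is not given in the sources used here, so overlapping, antisense and near-identical transcripts cannot be told apart. Per the labels' protocols, footprints were made with RNase I, pelleted ribosomes, linker ligation, rRNA depletion and circularisation, and RNA libraries with a stranded TruSeq kit.

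From these counts, rows with identical counts in all 11 libraries were merged (82937 rows with counts became 66016). Transcripts with at least 10 counts in 2 libraries of an assay were fitted with edgeR 4.0.16 in R 4.3.3 (TMM factors, robust quasi-likelihood, two-sided, Benjamini-Hochberg over all transcripts tested, threshold 0.05). All genotypes of an assay shared 1 spread. Translational efficiency was tested as the interaction of assay and genotype in a joint fit of all 11 libraries. The SE is the log2 change over the square root of F. Medians, steps and copy ratios carry no test. Ratios of single library pairs used log2 CPM with a prior count of 0.5. DESeq2 1.42.0, limma-voom 3.58.1, other scalings, filters, merging and left-out libraries were alternatives. The script was tested on simulated data. Counts of replicates differed beyond sampling noise, so none was treated as deposited again. Intervals cover counting error only.

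Identifiers were named by rule: the 2 most abundant members called higher in RNA against both genotypes, and the 2 with the lowest mean RNA ratio and a mean count of at least 50, each from different blocks of 20 lines. The members, lists and rules were chosen with earlier results of these data known.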

Additional observations from a re-analysis of the deposited data

Results flagged for a closer look

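The transcripts named above were listed here because the 2 knockouts differed in them by the test of that difference itself. For uc002wlp.4 the log2 difference of knockout 1 from knockout 2 was 0.31 in RNA and 0.34 in footprints. For uc002wml.4 it was 0.59 in RNA and 0.44 in footprints. For uc002wmu.2 it was -3.40 in RNA and -3.40 in footprints, the latter from 3 counts in knockout 1. All 3 were named for their RNA level in knockout 1, so the RNA differences describe that choice.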

How the results depend on the processing

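The medians of knockout 1 in RNA and footprints were above 0 in 51 of 51 alternatives, while counts of calls changed. The stretch was chosen for its level in knockout 1 and every alternative reused these libraries, so that sign supports nothing. With 1 member per 20 lines, 50 members were left in RNA and 48 in footprints and efficiency, and calls were counted over both directions. RNA had 20 (knockout 1 to wild type), 11 (to knockout 2) and 10 (knockout 2 to wild type). Beside them, 2.18% higher and 2.08% lower, 3.53% and 3.01%, and 5.9% and 6.4% of all transcripts were called. Footprints had 9, 9 and 7, beside 2.4% and 3.64%, 4.54% and 3.78%, and 7.14% and 8.67%. Efficiency had 1 (knockout 1 to wild type) and 5 (knockout 2 to wild type), beside 0.191% and 1.01%, and 2.64% and 5.5%. The medians were 0.0634 for RNA of knockout 2 to wild type, 0.140 for footprints of knockout 1 to knockout 2, and 0.0776 and 0.0763 for efficiency of knockout 1 and 2 to wild type. DESeq2 gave 21 RNA calls for knockout 2 to wild type and 9, 3 and 14 footprint calls. Over all transcripts it called 2151 higher and 2208 lower in that RNA comparison. In footprints it called 228 and 755, 467 and 289, and 562 and 1247. On lines 172101 to 173400, chosen after seeing the data, the medians were 0.32 in RNA and 0.35 in footprints for knockout 1 to wild type, 0.24 in footprints to knockout 2, 0.0645 in footprints of knockout 2 to wild type, and 0.0150 and -0.00717 for efficiency of knockout 1 and 2 to wild type. Without merging, the medians were 0.25 for RNA of knockout 1 to knockout 2, 0.39 for its footprints to wild type, and 0.0722 and 0.0897 for efficiency of knockout 1 and 2. With no count filter they were 0.0748 and 0.0568 for efficiency, and 1 member was called in efficiency between the knockouts. Over all transcripts that fit called 260 higher and 57 lower. A mean count of at least 50 gave footprint medians of 0.35 and 0.16 for knockout 1 to wild type and to knockout 2 (ratios 1.28 and 1.11), and relative log expression factors gave 0.36 (ratio 1.28) to wild type. The ratio of summed CPM was 1.10 in RNA to knockout 2, and 1.14 and 1.05 in footprints; with 1 member per 20 lines the median footprint ratio to knockout 2 was 1.10. Steps began at line 172001 (200-line steps) in RNA to wild type, at 171551 and 171601 (50 and 200 lines) in RNA to knockout 2, and at 172201 (1 transcript per 20 lines) and 172301 (mean count of at least 50) in footprints to wild type, and ended at 173400 (200 lines) in footprints to knockout 2.

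Leaving out 1 library each gave RNA calls of 13 to 69, 10 to 54 and 17 to 46 (knockout 1 to wild type, to knockout 2, knockout 2 to wild type), footprint calls of 6 to 35 (knockout 1 to knockout 2) and 18 to 39 (knockout 2 to wild type), and efficiency calls of 2 to 8, 0 to 2 and 9 to 21. The medians ranged from 0.20 to 0.23 and 0.0749 to 0.105 in RNA (to knockout 2, knockout 2 to wild type), 0.34 to 0.38 and 0.16 to 0.19 in footprints of knockout 1, and -0.000583 to 0.0932, -0.0327 to 0.00231 and 0.00524 to 0.0620 in efficiency. The efficiency of knockout 1 to wild type turned below 0 without replicate 2 of wild-type RNA. Step ends ranged from 173400 to 173500 and 173200 to 173400 in RNA, and 172900 to 173900 and 173300 to 173400 in footprints, and median ratios from 1.15 to 1.17 in RNA to knockout 2, and 1.27 to 1.30 and 1.12 to 1.14 in footprints. Footprints of uc002wlp.4 to wild type ranged from -0.173 to 0.0205, above 0 without replicate 2 of knockout 1. The causes of these changes were not tested. Deviations between replicates of the same numbers correlated across groups at -0.061, 0.067 and 0.033 in RNA and 0.001 in footprints. These values do not tell whether the numbers pair the samples, and the main fits did not pair them. A fit with the replicate number as a block gave 52 RNA calls of knockout 1 to knockout 2 (46 higher, 6 lower). Over all transcripts it called 2596 higher and 2280 lower, where the main fit called 2035 and 1737. No wild-type footprint library could be left out, since there is 1.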
